A study of Rattus norvegicus with 2 samples.

Results

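The transcripts of 9 proteoglycan core proteins were compared between cultured rat cells of the endocardium, which lines the heart chambers, and of the aorta. The labels call both endothelial cells. The 9 genes were Dcn, Bgn, Lum and Fmod of the small leucine-rich family, the hyalectan Vcan, the glypican Gpc1 and the syndecans Sdc1, Sdc2 and Sdc4, out of 4736 genes named on the array. They were chosen by name, with the intensities and ratios of these same arrays already known, so every ratio below is a description and none is tested. Probe sets were taken where the platform annotation gave that 1 symbol alone, which found 17 probe sets for the 9 genes. The endocardial and the aortic cells came from the same 2 rats, were kept as 1 pool per origin and were grown for 2 passages. Total RNA was read on the Affymetrix rat genome U34A array, with 1 array for either pool. The labels give no strain, sex, age or treatment of the rats and no sorting of the cells. With 1 array per group there is no replicate check, and differences between cultures, between dissections and between the 2 origins cannot be told apart.

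A proteoglycan is a core protein that carries long, sulfated sugar chains. Small leucine-rich proteoglycans sit on collagen fibrils and bind growth factors, hyalectans such as versican bind hyaluronan and swell the matrix, and glypicans and syndecans hold heparan sulfate at the cell surface, where it presents growth factors and chemokines. In the vessel wall decorin is mainly a product of adventitial fibroblasts and smooth muscle, and heparan sulfate on endothelium is a main part of its glycocalyx.

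Within the proteoglycan genes the secreted decorin and versican and the lipid-anchored glypican 1 were dimmer on the endocardial array. Fibromodulin was dimmer there too (log2 ratio -0.79, short of 2-fold), with endocardial values not resolved from background. Biglycan and lumican were nearly level, and all 3 syndecans were somewhat brighter on the endocardial array. The smaller probe set log2 ratios of Sdc1 and Sdc4, 0.21 and 0.19, were however no larger than the 0.21 of lumican. Decorin differed most, with lower bounds on the fold that ran from 3.79 to 12.8 over its 4 probe sets and had a median of 10.9. Of the 9 genes, 3 passed 2-fold in the lower direction (Dcn, Gpc1 and Vcan), 0 passed it in the higher direction and 6 lay between. Over all 2935 measured genes 4.16% were at least 2-fold lower and 5.93% at least 2-fold higher. Because the genes were chosen with these ratios known, the shares are given side by side and nothing is read from them. The median log2 ratio, endocardial over aortic, was 0.04 over the 9 genes and -0.02 over all measured genes. When a gene was read from its brightest probe set, Fmod joined the lower genes and Sdc1 passed 2-fold in the higher direction. When probe sets with a suffix letter were dropped, the 6 genes that were left gave 1 lower gene, Gpc1.

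Intensities below are linear and scaled to the same trimmed mean on both arrays. A floor of 635.0 is the median of all scaled values, and a probe set was used for a ratio when it exceeded the floor on at least 1 array. Of the 17 probe sets 16 did so, and all 9 genes were measured. The highest of 38 background controls, probe sets that should find no target in rat RNA, read 1741. Above that control lay 10 of the 17 probe sets in endocardial and 15 in aortic cells. Where the dimmer array was under it, a fold is given as a lower bound against it. As a guide to measurement error, log2 ratios of different probe sets of the same gene had an SD of 0.39 (625 genes with 1432 probe sets that exceeded the floor on both), or 0.30 where all values exceeded the highest control (385 genes). This SD covers disagreement between probe sets within these arrays, not between cultures.

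**Figure D1:**
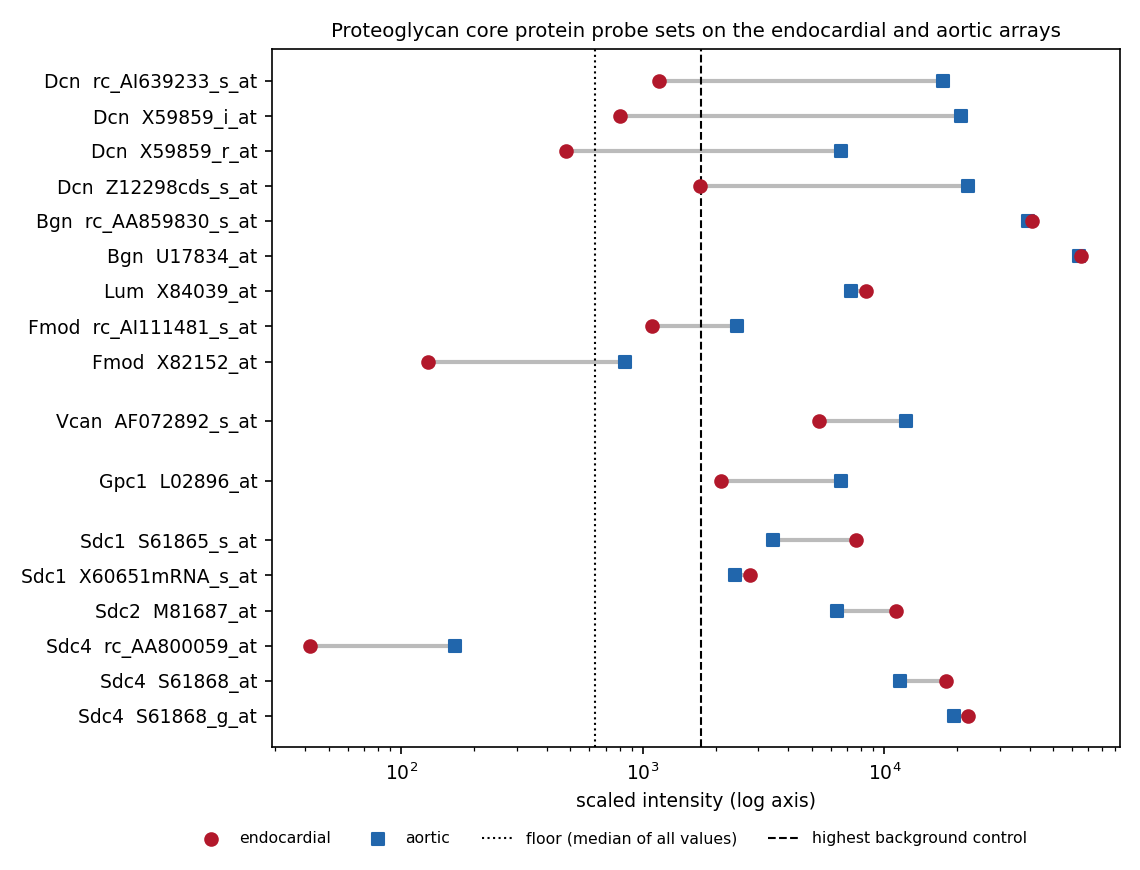
Scaled intensity (log axis) of each of the 17 probe sets on the endocardial array (circles) and the aortic array (squares), with the floor at 635.0 (dotted line) and the highest background control at 1741 (dashed line). All 4 Dcn probe sets lie left of the dashed line in endocardial cells and between 6597 and 22298 on the aortic array, while the circles of the 5 brighter syndecan probe sets lie right of their squares.

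Decorin, encoded by Dcn, binds collagen fibrils, holds transforming growth factor beta and antagonises the epidermal growth factor receptor. Its probe set rc_AI639233_s_at read 1165 on the endocardial and 17416 on the aortic array. Z12298cds_s_at read 1728 on the endocardial and 22298 on the aortic array. The related pair X59859_i_at and X59859_r_at, drawn from 1 target sequence, read 807 and 478 in endocardial cells, against 20857 and 6597 in aortic cells. All 4 probe sets were therefore brighter on the aortic array, and all 4 endocardial values lay under the highest background control, so decorin was not resolved from background in the endocardial cells.

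Against the highest control the aortic excess of Dcn was at least 12.8-fold for Z12298cds_s_at, at least 12.0-fold for X59859_i_at, at least 10.0-fold for rc_AI639233_s_at and at least 3.79-fold for X59859_r_at. The aortic value of the last was the lowest of the 4, so its bound is the smallest by construction. The log2 ratios taken with the lower floor of 635.0 ran from -4.69 to -3.38 and had a median of -3.80. At that floor only X59859_r_at had its endocardial value raised to the floor. With the highest control as the floor all 4 endocardial values were raised to it, and the median of -3.45 is a bound. The 3 genes with the nearest log2 ratio were sought among 2265 genes above the floor with all kept probe sets on both arrays. They were Vcam1, the leukocyte adhesion receptor (-3.63), the secreted protein gene Wfdc1 (-2.68) and the growth arrest gene Gadd45a (-2.60). Dcn itself would not pass this rule, because of X59859_r_at. Among all measured genes Dcn had the 5th lowest ratio, Vcam1 the 6th and Wfdc1 the 10th. Genes left out by the rule therefore lay nearer to Dcn than Wfdc1 did. With the highest control as the floor the ratios were -3.55 for Vcam1, -2.42 for Gadd45a and -1.97 for Wfdc1, so the order of the last 2 depends on the floor. With 2 arrays this likeness is no more than a similar ratio.

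Biglycan, encoded by Bgn, is the closest relative of decorin and also binds collagen and transforming growth factor beta. Its probe set U17834_at read 65354 on the endocardial and 64234 on the aortic array, and rc_AA859830_s_at read 40819 on the endocardial and 39179 on the aortic array. The log2 ratios of 0.02 and 0.06 were far smaller than the SD among probe sets of a gene. Biglycan was thus bright and nearly level on both arrays, where decorin was well above background on 1 array alone.

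Lumican, encoded by Lum, and fibromodulin, encoded by Fmod, bind collagen fibrils and steer their assembly, and can carry keratan sulfate. The 1 probe set of Lum, X84039_at, read 8425 on the endocardial and 7268 on the aortic array, a log2 ratio of 0.21, which is within the SD among probe sets. Both Fmod probe sets were dimmer on the endocardial array. The first, rc_AI111481_s_at, read 1093 on the endocardial and 2449 on the aortic array, which is at least 1.41-fold lower against the highest control. The second, X82152_at, read 129 on the endocardial and 844 on the aortic array, both under that control, so it gives no fold. With the floor of 635.0 the 2 log2 ratios were -1.16 and -0.41 and their median was -0.79. Only 1 of the 4 Fmod values exceeded the highest control, the aortic value of the first probe set.

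Dcn and Lum lie next to each other on rat chromosome 7 in the RefSeq gene order, with Btg1 on the other side of Dcn and Kera and Epyc beyond Lum. The neighbours of Dcn did not share its difference in intensity. The log2 ratio was -3.80 for Dcn, against 0.21 for Lum and 0.05 for the antiproliferative gene Btg1. Kera and Epyc, which encode further small leucine-rich proteoglycans, were not paired with a probe set here.

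Versican, encoded by Vcan, is the large hyaluronan-binding proteoglycan of the vascular intima and of the endocardial cushions that form heart valves. Its 1 probe set, AF072892_s_at, read 5382 on the endocardial and 12239 on the aortic array. Both values were above the highest control, and the endocardial value was 2.27-fold lower (log2 ratio -1.19). The suffix _s_at marks a probe set that may detect several transcripts, and the splice forms of versican were not told apart.

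Glypican 1, encoded by Gpc1, is held to the membrane by a lipid anchor and serves as a coreceptor for fibroblast growth factors and Slit proteins. Its 1 probe set, L02896_at, read 2115 on the endocardial and 6632 on the aortic array. The endocardial value, 3.14-fold lower (log2 ratio -1.65), lay just above the highest control. Gpc1 had the 32nd lowest log2 ratio of the 2935 genes and Vcan the 86th lowest.

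The syndecans span the membrane, carry heparan sulfate on the outside and bind adaptor proteins inside. For Sdc1, syndecan 1, the probe set S61865_s_at read 7624 on the endocardial and 3449 on the aortic array, a 2.21-fold difference. The other Sdc1 probe set, X60651mRNA_s_at, read 2774 on the endocardial and 2403 on the aortic array, a 1.15-fold difference. Both Sdc1 probe sets were brighter on the endocardial array, but their log2 ratios of 1.14 and 0.21 lay 0.94 apart. The 0.21 was within the SD among probe sets. The size of the Sdc1 difference was thus not settled, and its median of 0.68 did not reach 2-fold.

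Syndecan 2, encoded by Sdc2, had 1 probe set, M81687_at, which read 11139 on the endocardial and 6338 on the aortic array, a 1.76-fold difference (log2 ratio 0.81). Syndecan 4, encoded by Sdc4, is a component of focal adhesions. Its probe set S61868_at read 17919 on the endocardial and 11640 on the aortic array. S61868_g_at, which is drawn from the same target sequence, read 22186 on the endocardial and 19412 on the aortic array. The log2 ratios of 0.62 and 0.19 had a median of 0.41. The 0.19 was within the SD among probe sets, and the median was close to the SD of 0.39. The third Sdc4 probe set, rc_AA800059_at, read 42 on the endocardial and 167 on the aortic array, under the floor on both, and gives no ratio. All 5 syndecan probe sets that were kept were brighter on the endocardial array and above the highest control on both arrays. Over all measured genes 1935 of 3975 kept probe sets were brighter on the endocardial array. The syndecans were chosen with these ratios known, so nothing is read from the count. The median over the 3 syndecans was 0.68, and 80.6% of all measured genes had a log2 ratio below that of Sdc4, 88.8% below that of Sdc1 and 91.4% below that of Sdc2.

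**Figure D2:**
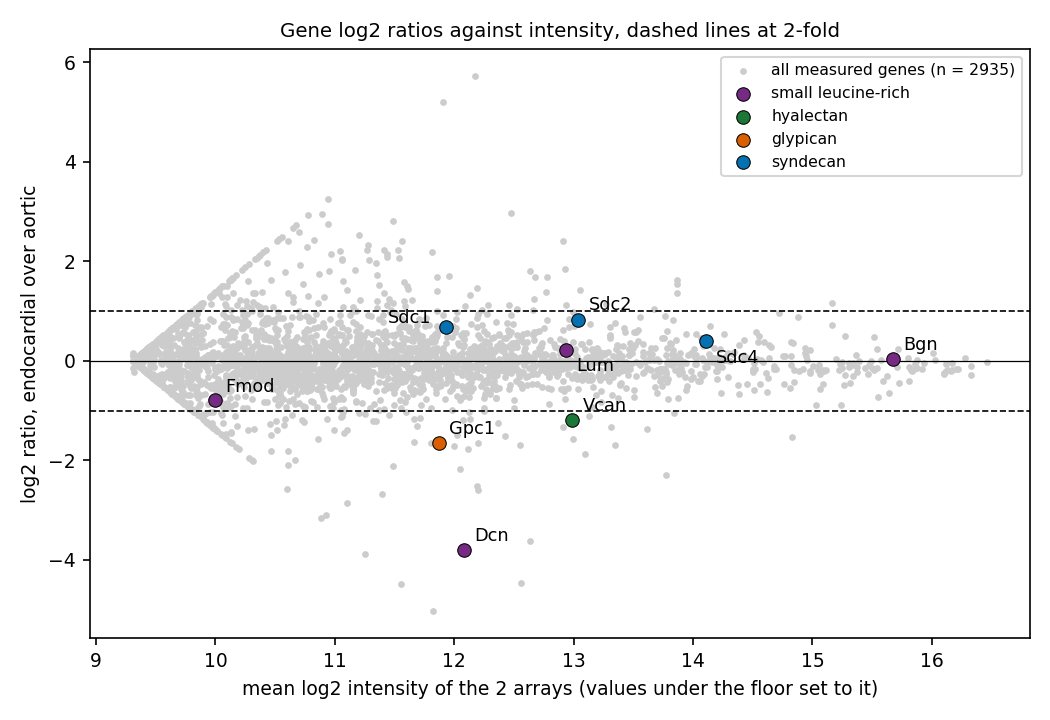
Log2 ratio, endocardial over aortic, against mean log2 intensity of the 2 arrays for 2935 measured genes (grey) and the 9 proteoglycan genes (coloured by class), with dashed lines at 2-fold. Dcn at -3.80 stands near the lower edge of all genes. Gpc1 at -1.65 and Vcan at -1.19 lie past the lower line, and the 3 syndecans lie between 0.41 and 0.81.

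Promoter windows are shown for Fmod and Vcan, which were dimmer on the endocardial array, and for Sdc1 and Sdc4, which were brighter, so that the sequences ahead of genes with opposite ratios can be read side by side. RefSeq windows on assembly GRCr8 matched 5 of the 9 genes. Each sequence gives the 250 bases before the annotated start, 5′ to 3′ on the strand of the gene, with capitals marking GGGCGG, the GC box, on either strand. The windows lie at chr13:48045317-48045566 on the plus strand for Fmod, chr2:22595956-22596205 on the minus strand for Vcan, chr6:37281791-37282040 on the plus strand for Sdc1 and chr3:173592924-173593173 on the minus strand for Sdc4.
Fmod: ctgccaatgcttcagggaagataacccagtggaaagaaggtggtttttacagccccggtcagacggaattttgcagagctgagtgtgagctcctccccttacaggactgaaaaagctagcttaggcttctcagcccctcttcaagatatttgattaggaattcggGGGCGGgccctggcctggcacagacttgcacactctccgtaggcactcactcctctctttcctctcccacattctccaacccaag
Vcan: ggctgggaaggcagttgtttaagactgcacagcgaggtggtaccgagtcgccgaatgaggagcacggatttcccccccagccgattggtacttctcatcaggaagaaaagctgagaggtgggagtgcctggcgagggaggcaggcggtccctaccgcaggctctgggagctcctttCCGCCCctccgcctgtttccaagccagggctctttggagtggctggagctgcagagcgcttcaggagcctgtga
Sdc1: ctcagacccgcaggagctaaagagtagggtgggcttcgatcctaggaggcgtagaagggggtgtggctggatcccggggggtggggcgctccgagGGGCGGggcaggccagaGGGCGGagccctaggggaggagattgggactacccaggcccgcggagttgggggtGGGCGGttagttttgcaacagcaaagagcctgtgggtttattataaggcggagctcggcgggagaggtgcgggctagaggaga
Sdc4: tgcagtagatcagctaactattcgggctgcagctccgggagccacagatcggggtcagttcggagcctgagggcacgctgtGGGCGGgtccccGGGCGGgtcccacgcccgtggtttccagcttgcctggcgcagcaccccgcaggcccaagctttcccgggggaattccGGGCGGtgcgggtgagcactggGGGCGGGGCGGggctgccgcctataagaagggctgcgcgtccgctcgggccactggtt

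The GC box was matched 1 time in the window of Fmod, 1 time in that of Vcan, 3 times in that of Sdc1 and 5 times in that of Sdc4, where the last pair of matches overlap by their final and first base. At least 1 match was found in 30.5% of all 33469 windows of this length. The windows of Sdc1 and Sdc4 had 65.2% and 70.0% G and C, that of Vcan had 61.6% and that of Fmod had 52.8%, against a median of 51.2% over all windows. Not shown were the window of Lum, with 0 GC boxes and 52.8% G and C, and another of Vcan, with 1 GC box and 60.0%. A link between these letters and the ratios was not tested. The other motifs searched on both strands were the TATA box TATAAA (in 12.9% of all windows), the AP-1 site TGANTCA (6.34%) and the E-box CACGTG (5.59%), and none of these letters occurred in the windows shown. The matches describe these letters alone.

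Genes that build, cut, bind or work with proteoglycans were read from 9 further lists, with log2 ratios taken against the floor of 635.0. Among other matrix proteoglycans, 0 of 4 measured genes passed 2-fold in either direction (median log2 ratio -0.08). Agrn, which encodes agrin of basement membranes and synapses, had a log2 ratio of 0.80 and Spock2, a testican, had -0.97, while Bcan (0.02) and Esm1, the endothelial proteoglycan endocan (-0.18), lay between. Of these only Bcan and 1 of the 2 Agrn probe sets exceeded the highest control on both arrays. Acan, Ncan and Srgn were under the floor on both arrays, as were Omd, Aspn and Chad of the small leucine-rich family, none of whose 3 other genes on the array was measured.

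Among other cell-surface proteoglycans, 1 of 4 measured genes was at least 2-fold higher, Gpc6, and 0 were lower. Its 1 probe set read 4046 on the endocardial and 338 on the aortic array, which is at least 2.32-fold against the highest control. Gpc6 and Gpc1 are both glypicans, and their intensities differed in opposite directions. Cd44, the hyaluronan receptor, had a log2 ratio of -0.51 from the 1 of its 4 probe sets that exceeded the floor. The list also held Cspg5 (-0.67, from 1 of 2 probe sets) and the betaglycan gene Tgfbr3 (-0.28), whose values lay under the highest control. Sdc3, Gpc2, Gpc3, Cspg4 and Ptprz1 were under the floor on both arrays.

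Of 41 genes of chain synthesis and sulfation 11 were on the array and 8 were measured. Of these 8, 0 were higher and 0 lower past 2-fold, with a median of 0.06, and 1 was lower (Chst10) with the floor at the 25th percentile of positive values. Papss1 and Papss2, which make the sulfate donor, had log2 ratios of 0.68 and 0.53, and Hs6st1, a heparan sulfate 6-O-sulfotransferase, had 0.53. Ugdh, which makes the uronic acid precursor, had -0.68 and Chst10, a sulfotransferase, -0.43, each with a probe set under the floor on the endocardial array. In the hyaluronan list the hyaluronidase gene Hyal2 (0.31) was the 1 measured gene, and the hyaluronan synthase gene Has2 was under the floor on both arrays.

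Of 6 measured proteases and inhibitors, 0 passed 2-fold (median -0.26). The lowest were Timp3 (-0.94) and Timp1 (-0.58), inhibitors of metalloproteinases. The endocardial value of Timp3 lay under the highest control, and with that control as the floor its ratio was -0.55, so the order of these 2 is not resolved. In the other direction stood Mmp7 (0.43, with both intensities under the highest control) and the membrane-bound Mmp14 (0.36).

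Of 15 measured partners of decorin and biglycan, 2 passed 2-fold in the higher and 2 in the lower direction (median -0.06). The higher genes both encode ligands of the transforming growth factor beta family. Tgfb2 read 4229 on the endocardial and 92.6 on the aortic array, at least 2.43-fold higher against the highest control, and Tgfb3 read 23974 on the endocardial and 9345 on the aortic array, with a log2 ratio of 1.36 over 2 probe sets. Tgfb1, with an aortic value under the highest control, was at least 1.76-fold higher against it. The lower genes were Egfr, the epidermal growth factor receptor, at 835 on the endocardial and 2918 on the aortic array (at least 1.68-fold against the highest control), and the elastin gene Eln, at 367 on the endocardial and 1547 on the aortic array, where both Eln values lay under the highest control. With that control as the floor neither Egfr nor Eln passed 2-fold. The fibrillar collagen chains that these proteoglycans coat differed less than Dcn did. Col1a1 read 68125 on the endocardial and 74645 on the aortic array (log2 ratio -0.06), and Col1a2, Col3a1, Col5a2 and Col5a1 had log2 ratios of -0.26, -0.17, -0.45 and -0.74.

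Of 15 measured ligands and receptors that bind heparan sulfate, 1 was at least 2-fold higher and 2 lower (median -0.02). Tfpi, the tissue factor pathway inhibitor, read 8433 on the endocardial and 4117 on the aortic array (log2 ratio 1.03). Vegfa, the vascular endothelial growth factor, read 3005 on the endocardial and 6734 on the aortic array (median of 3 probe sets, log2 ratio -1.16), and the fibroblast growth factor gene Fgf7 had both values under the highest control. The Vegfa ratio was -0.93, short of 2-fold, with its brightest or its plain probe set or with the floor at the 75th percentile. Tfpi had no value with plain probe sets. Slit3, of the family that binds glypican 1, had -0.39, the receptor Fgfr1 -0.13, and Pdgfa, the second highest gene, 0.65 with all values under that control. Of 9 measured syndecan adaptors and integrins, 0 passed 2-fold (median -0.08). The integrin subunit Itgb1 (0.87) and the alpha-actinin Actn4 (0.59), both parts of adhesions, had the highest log2 ratios, and Ezr (-0.46), which links membrane proteins to actin, and Itgb3 (-0.28, with both intensities under the highest control) the lowest.

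**Figure D3:**
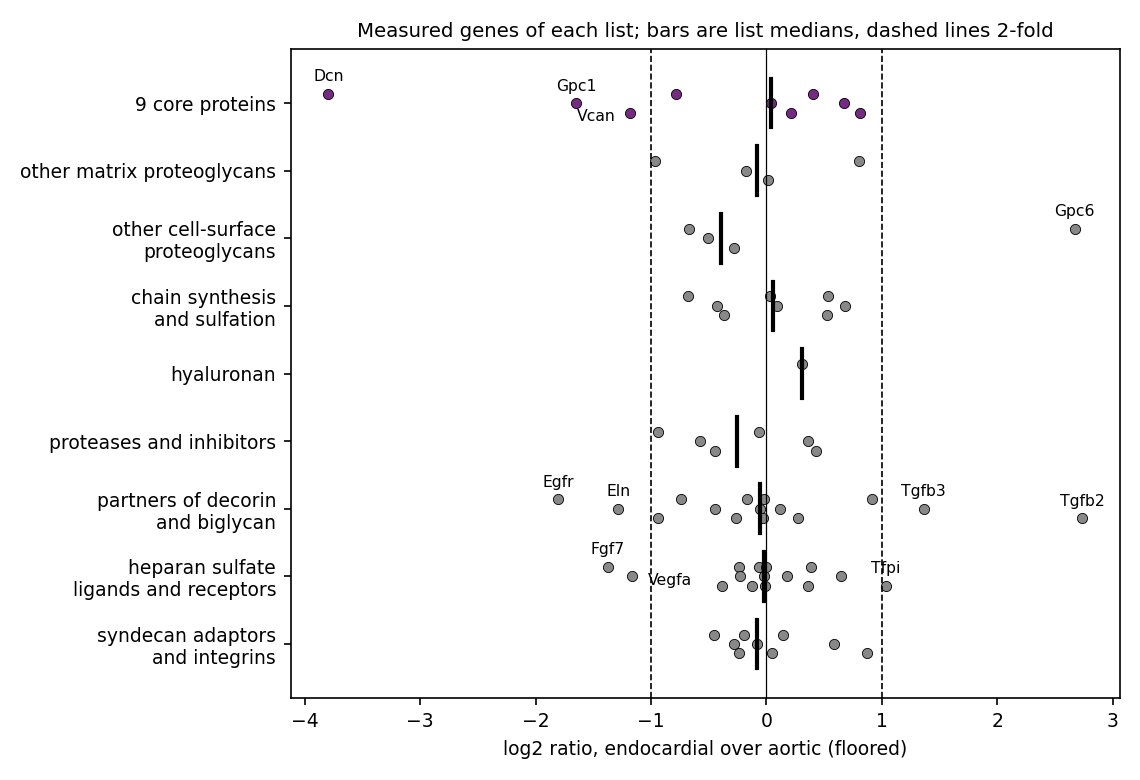
Log2 ratio, endocardial over aortic, of each measured gene in the proteoglycan set and in 8 lists of related genes, with bars at list medians and dashed lines at 2-fold. Genes past 2-fold are named, and those at or under the floor on 1 array are drawn at their bound against the floor of 635.0. The list medians lie between -0.40 and 0.31, while Dcn at -3.80 stands far to the left and Gpc6 and Tgfb2 to the right.

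Markers of other cell types were measured on the same arrays. Summed intensities of a list are over all probe sets of its genes, also those under the floor, with values below 0 counted as 0. Genes with more probe sets weigh more, so the sums can be set side by side between arrays but not between lists. Of 8 fibroblast markers, all above the highest control on both arrays, 1 passed 2-fold as higher (Postn, log2 ratio 2.98) and 1 as lower (Lox, -1.53), with a median of -0.22 and summed intensities of 683765 on the endocardial and 824221 on the aortic array. Of 5 smooth muscle markers, 1 was higher (Myl9, 1.54) and 1 lower (Myh11, at least 1.45-fold against the highest control, from 1 of its 3 probe sets). The list had a median of 0.71 and sums of 320252 on the endocardial and 224365 on the aortic array. In this list Acta2 read 50010 on the endocardial and 26887 on the aortic array as medians of 3 probe sets. Their log2 ratios ran from 0.15 to 0.90, with a median of 0.71. Tagln read 58708 on the endocardial and 49556 on the aortic array. Of 6 macrophage markers, 4 were higher (Lyz2, Ctss, Cd53 and Cd74) and 0 lower, while Cd14 (0.38) and Ptprc (-0.09) lay between. With the highest control as the floor 1 was higher, Lyz2. Over all measured genes 5.93% were higher, or 3.99% with the highest control as the floor. Macrophage markers had sums of 56251 on the endocardial and 10319 on the aortic array, led by Lyz2 at 33601 in endocardial and 288 in aortic cells. Mesothelial and epicardial markers summed to 3222 in endocardial and 1746 in aortic cells, and cardiomyocyte markers to 4960 in endocardial and 5606 in aortic cells, with at most 1 gene of either list above the highest control on an array. With the highest control as the floor, no gene of these 2 lists passed 2-fold. Of 7 endothelial markers on the array 4 were measured, of which 1 was higher and 0 lower. The list had a median of 0.14 and sums of 14034 on the endocardial and 12212 on the aortic array. The higher gene, Ets1, read 1719 on the endocardial and 679 on the aortic array and did not pass 2-fold with the highest control as the floor. Flt1 read 1054 on the endocardial and 827 on the aortic array, and Nos3 read 1381 on the endocardial and 1396 on the aortic array. Neither array raised Kdr, Pecam1 or Vwf above the floor, with Kdr below 0 on both, and Thbd, at 2847 on the endocardial and 3918 on the aortic array, was the 1 gene with a median above the highest control on both. The labels call both pools endothelial cells, but the share of such cells in either pool was not tested, so all values are those of the pools. The part of other cell types in the Dcn, Vcan, Gpc1 and syndecan differences was not tested. Fewer cells of a type and less RNA per cell cannot be told apart in such pools.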

How the data were processed

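The authors deposited 1 linear intensity per probe set and array, per the labels from Affymetrix rat genome U34A arrays. For the software that made these values, the sources used here name none. Of these values 24.3% were at or below 0 on the endocardial and 25.8% on the aortic array.

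The 59 control probe sets were left out, and the other 8740 were scaled to the same 2% trimmed mean (factors 0.999 endocardial, 1.00 aortic). Values under the floor were set to it before log2 ratios were taken. The value of a gene is the median over kept probe sets. Of the 8740, 7006 had 1 symbol, 308 several and 1426 none, per the platform annotation, and 6985 matched RefSeq genes of GRCr8. Background controls were opposite-strand, unspiked bacterial, yeast and mouse probe sets. No test across samples is possible with 1 array per group, so genes were counted at 2-fold.

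Named were all 9 members, every gene past 2-fold and the 2 highest and 2 lowest of each pathway list. The 3 genes nearest to Dcn among those above the floor on both arrays were also named. Other pathway genes and the cell type markers named were added after their values were seen. Members and lists were chosen with earlier results of these data known. Calculations used Python 3.11.15, pandas 2.3.3 and statsmodels 0.14.6 and were tested on simulated data. Alternatives covered scaling, floor and the choice of probe sets.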

Additional observations from a re-analysis of the deposited data

How the results depend on the processing

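Counts at 2-fold and log2 ratios of genes were recomputed under 10 alternatives, each where it gave a value; summed intensities of markers were not. The count of proteoglycan genes at least 2-fold lower, 3 of 9, fell to 1 of 6 with plain probe sets only, which leave out Dcn, Vcan and Sdc1 by construction, and the count at least 2-fold higher, 0, became 1 (Sdc1) with the brightest probe set. Over all genes, 122 lower and 174 higher became 40 and 45 when the floor was the 75th percentile and 45 and 76 when it was the highest background control, settings that measure fewer genes. The log2 ratio of Dcn ran from -3.92 to -2.89, and the value nearest 0 came from the floor of the 75th percentile, which by construction shrinks a ratio against a dim array. Fmod ran from -1.16 to -0.41, Vcan from -1.19 to -1.15, Gpc1 from -1.65 to -1.37, Sdc1 from 0.63 to 1.14, Sdc2 from 0.81 to 0.84, Sdc4 from 0.19 to 0.62, Bgn from 0.02 to 0.18 and Lum from 0.21 to 0.25. No sign changed among the 9. Of 1207 values of single genes, lists and the median of the 9 under these alternatives, 71 moved by more than the SD among probe sets or, for counts, by over 1.5 times. Fmod passed 2-fold lower with the brightest probe set and when the floor was the 25th percentile of positive values, and had no value when it was the 75th percentile of all values. No paired analysis was possible because each group has 1 array. Signal near background limits Dcn and Gpc1 on the endocardial array and Fmod on both arrays, and the number of arrays limits the precision of every value.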
